A study of Rattus norvegicus with 12 samples.

Results

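The synaptic vesicle cycle genes described here are 41 named genes whose products fill, dock, fuse and recycle the vesicles that release neurotransmitter. They were chosen by symbol, and every probe set that the array annotation assigns to 1 of these genes alone was taken. All 41 genes were found, with 63 of the 31099 probe sets on the array. After a filter on low signal 40 of them were tested, of 12153 genes tested among the 14217 with such a probe set. The filter removed Sv2c, a vesicle glycoprotein gene (Sham mean 6.56 on the log2 scale), and the other 40 had passed it in at least 11 of the 12 arrays. The animals were male Sprague-Dawley rats, 8 weeks old, and each gave 1 array made from its left hemisphere. MCAO rats (n = 7) went through a temporary block of the middle cerebral artery, a model of ischemic stroke, and Sham rats (n = 5) through surgery without it. Both groups were sampled 24 h after reperfusion. The labels do not say which side was occluded, so the tissue may hold injured and spared regions in unknown proportion.

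A nerve terminal stores transmitter in small vesicles that a proton pump acidifies and that transporters then fill. Active zone proteins hold filled vesicles at the release site, where the vesicle SNARE protein synaptobrevin and the membrane SNARE proteins syntaxin and SNAP-25 zip together and complexin and the calcium sensor synaptotagmin gate fusion. NSF and its SNAP adaptors then take the SNARE complex apart, and dynamin, amphiphysin and synaptojanin help to retrieve the membrane. In the brain these genes are expressed mainly by neurons. In bulk tissue, fewer neurons and less RNA per neuron cannot be told apart.

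Array medians ran from 7.23 to 7.27 log2 units, and the number of arrays limits the precision. Of all probe sets 62.5% barely moved across the arrays (an SD under 0.01 over all 12, called near-constant here), and a gene read by such a probe set gives no usable size of change. Genes above that limit are called varying, and there were 6339 of them. The 3' minus 5' signal of the beta-actin control, a measure of RNA integrity, was 1.27 to 1.47 log2 units in 6 MCAO arrays and 1.40 to 1.46 in Sham (difference -0.06, exact two-sided permutation p = 0.13). MCAO 6 was left out of that comparison because its control values are displaced. Of 40 controls near-constant in the other 11 arrays, 0 matched them in MCAO 6 within 0.05 log2 units. All 12262 near-constant gene probe sets matched, but they were picked for a low SD over all 12 arrays, MCAO 6 included. That match was therefore fixed in advance and cannot show whether the gene values of MCAO 6 are displaced. In the same 6 MCAO arrays, 12 varying spike-in controls differed from Sham by -0.15 to 0.24 log2 units (median 0.15), similar in size to many of the changes given here. Their part in these changes was not tested.

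The synaptic vesicle cycle genes were lower after MCAO, by modest amounts, and none rose when each gene was read from its brightest probe set. A dimmer probe set of Syt4 rose, as described with the probe sets below. Of the 29 varying members 20 fell, 0 rose and 9 were not called (limma, Benjamini-Hochberg adjusted p under 0.05 over all 12153 genes). Among all varying genes 34.2% fell and 35.2% rose, so the share of members that fell, 69.0%, was above the background and the share that rose was below it. The members were chosen with earlier results of these data known, so this contrast may reflect the choice and was not tested. At an unadjusted p under 0.05, 21 members were lower and 0 higher. The median log2 change of the 29 members was -0.26, against 0.03 for all varying genes, and 26 of the 29 estimates were below 0, against 48.1% of all varying genes. The sizes ran from -0.49 (Bsn) to 0.10 (Rph3a). Complete downward separation was about as frequent as in the background. All 7 MCAO rats lay below all 5 Sham rats in 5 of the 29 members, near the 16.2% of all varying genes. Fully above lay 0 members and 17.9% of all varying genes. The 5 members fully below were Snap25, Napb, Stx1a, Syngr3 and Sncb. In the other 15 that fell the groups overlapped: every MCAO rat was below the Sham mean in 9 of them, and 6 of 7 MCAO rats were in the other 6.

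**Figure D1:**
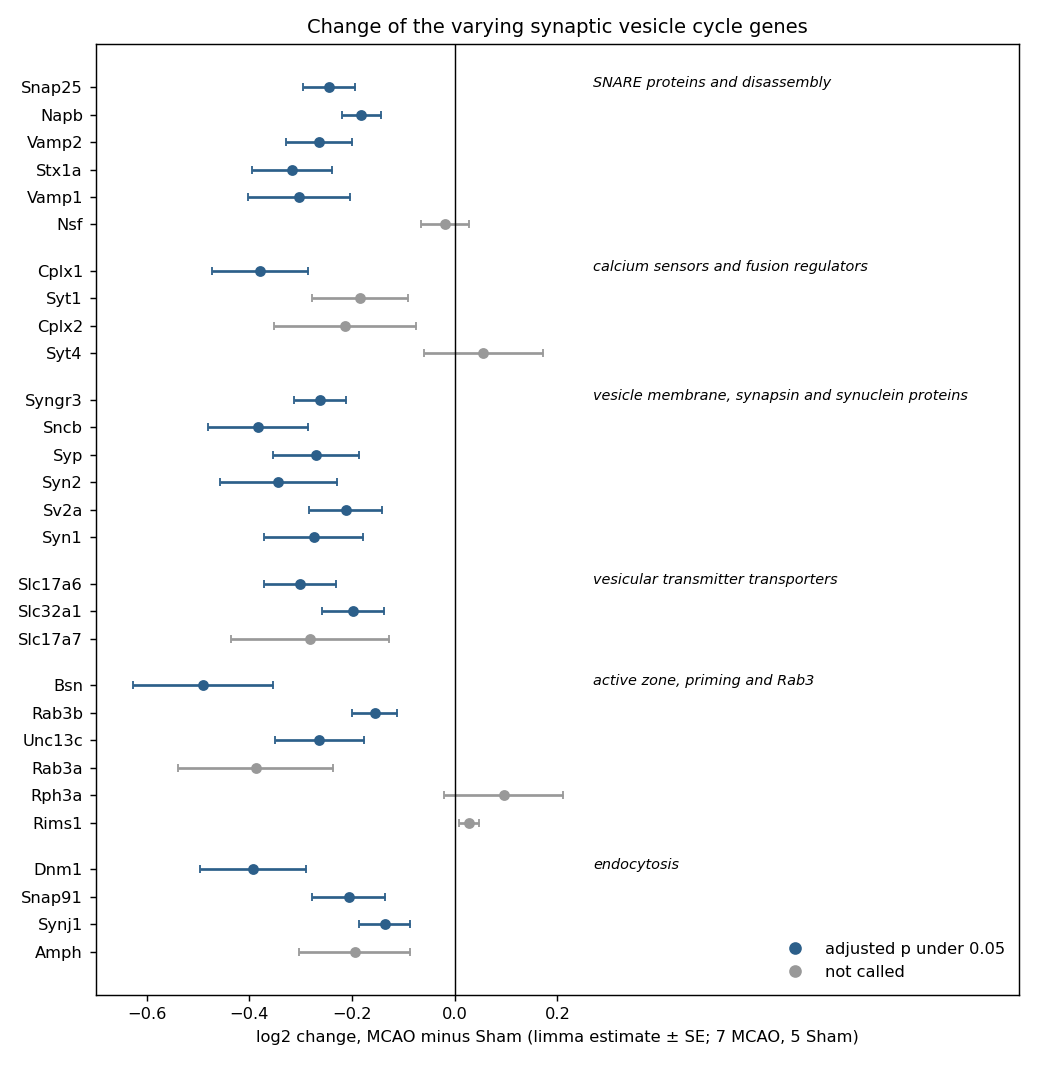
Log2 change (MCAO minus Sham, limma estimate with its standard error, 7 MCAO and 5 Sham rats) on the horizontal axis for the 29 varying members, grouped by role. Blue points passed an adjusted p of 0.05 and grey points did not. All 20 blue points lie below 0, and 3 of the grey points (Syt4, Rph3a and Rims1) lie above it.

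Promoter sequences were available for 32 of the 41 genes (RefSeq, build GRCr8, from 250 bases before to 50 after the start of each gene). A full cAMP response element, the palindrome TGACGTCA bound by the CREB family, was found in 2 of these 32, the promoters of the synaptobrevin gene Vamp1 and the synapsin gene Syn1, both of which fell. A fall was common, in 20 of the 29 varying members. The windows around the element, 80 bases each, are shown because the same 8 letters occur in promoters of a SNARE gene and a gene for a vesicle-bound protein. Capitals mark the element, and both stretches are given 5′ to 3′ on the strand of the gene, which is the plus strand for each. The Vamp1 stretch is chr4:159698787-159698866 and runs from 107 to 28 bases upstream of the start. The Syn1 stretch is chrX:3725519-3725598 and runs from 226 to 147 bases upstream.
Vamp1: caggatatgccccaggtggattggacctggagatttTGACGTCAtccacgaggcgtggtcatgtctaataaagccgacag
Syn1: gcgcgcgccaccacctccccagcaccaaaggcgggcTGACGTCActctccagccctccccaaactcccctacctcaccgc
The element occurred in 6.25% of the member promoters, in 1.83% of all 33469 promoters in the table and in 2.96% of the 11395 promoters of tested genes. The shorter motif TGACG, searched on both strands and held within the full element, occurred in 14 of the 32 member promoters (43.8%). It occurred in 21.2% of all promoters and 29.9% of those of tested genes. Among the 14 were genes that fell, such as Dnm1, genes not called, such as Cplx2, and Syt4. The letters TTCAGCACC, the left part of the RE1 element bound by the neuronal gene repressor REST, occurred on either strand in 1 member promoter, that of Unc13a, and in 0.356% of all promoters. Such a match is a description of letters, and binding was not measured.

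SNARE genes and the genes for SNARE disassembly fell, with a median log2 change of -0.25 over the 6 varying members, of which 5 fell. Snap25 (Entrez Gene 25012), the SNAP-25 gene and the brightest SNARE signal, read 13.34, 13.28, 13.29, 13.33 and 13.30 in Sham 1 to 5. In MCAO it ranged from 12.87 (MCAO 6) over a median of 13.09 to 13.22 (MCAO 2). The Sham rats were nearly level, and all 7 MCAO rats lay below all of them. The change was -0.25 ± 0.05 (SE; limma adjusted p = 0.00407), a 1.19-fold decrease, and it had the strongest statistic of the SNARE genes.

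Stx1a (Entrez Gene 116470), the syntaxin of the presynaptic membrane, had the largest change of the group. Sham 1 to 5 read 9.36, 9.47, 9.48, 9.50 and 9.44, and MCAO ran from 8.90 (MCAO 3) over 9.15 to 9.34 (MCAO 7). The groups did not overlap, but the highest MCAO rat lay just under the lowest Sham rat. Stx1a fell by 0.32 on the log2 scale (SE 0.08, limma adjusted p = 0.00853), or 1.25-fold.

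Napb, the neuronal SNAP adaptor that brings NSF to the SNARE complex, also separated the groups (MCAO 10.78 ± 0.08, SD, n = 7; Sham 10.96 ± 0.03, SD, n = 5; change -0.18 ± 0.04, limma adjusted p = 0.00438). Both synaptobrevin genes fell by similar amounts. Vamp2, the main synaptobrevin of forebrain, changed by -0.26 ± 0.06 (limma adjusted p = 0.00828), with 5 of 7 MCAO rats below the lowest Sham rat. Vamp1, whose promoter is shown above, changed by -0.30 ± 0.10 (limma adjusted p = 0.0293), and its call was lost in 6 of 24 alternative settings. Nsf, the ATPase gene, had an MCAO mean of 11.24 ± 0.07 (SD, n = 7) against 11.25 ± 0.09 (SD, n = 5), a change of -0.02 ± 0.05 that was not called (limma adjusted p = 0.796). Another Nsf probe set, 1372528_at, was brighter than this one in Sham (mean 11.46) and dimmer in MCAO (11.01). It fell, as described with the probe sets below.

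Among the calcium sensors and fusion regulators 1 of 4 varying members fell, the complexin gene Cplx1 (Entrez Gene 64832), whose protein clamps and then promotes SNARE zippering. It read 11.45, 11.60, 11.66, 11.70 and 11.42 in Sham 1 to 5 and 11.01 (MCAO 6), 11.17 (median) and 11.55 (MCAO 2) in MCAO. All MCAO rats but MCAO 2 lay below the lowest Sham rat. The change was -0.38 ± 0.09 (limma adjusted p = 0.00901), a 1.30-fold decrease. Cplx2, the complexin of forebrain excitatory neurons, had a change of -0.21 ± 0.14 (limma adjusted p = 0.242), and MCAO 4 (11.02) was above all Sham rats. Syt1, the fast calcium sensor, had a change of -0.18 ± 0.09 (limma adjusted p = 0.136), with 5 MCAO rats below the lowest Sham rat. The median change of the 4 genes was -0.20. Syt5, Syt7, Syt11, Syt12 and Doc2b were near-constant, so the other calcium sensors were not measured in a usable way. The fourth varying member, Syt4, is described with its probe sets below.

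All 6 varying vesicle membrane, synapsin and synuclein genes fell in their brightest probe sets, with a median log2 change of -0.27. Other varying probe sets of Syn2 and Sncb were not called, as described with the probe sets below. Syngr3 (Entrez Gene 302975), a vesicle membrane protein of the synaptogyrin family, had the strongest statistic of all members. It read 10.96, 10.96, 11.01, 10.96 and 10.97 in Sham 1 to 5, and 10.54 (MCAO 6), 10.72 (median) and 10.84 (MCAO 2) in MCAO. Sham varied by 0.02 (SD, n = 5) and every MCAO rat lay below it. The change was -0.26 ± 0.05 (limma adjusted p = 0.00317), a 1.20-fold decrease.

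Sncb (Entrez Gene 113893), which encodes beta-synuclein, a presynaptic chaperone-like protein, had the largest change of this group. Sham 1 to 5 read 11.44, 11.55, 11.55, 11.57 and 11.42, and MCAO ran from 10.92 (MCAO 3) over 11.02 to 11.39 (MCAO 4). The groups did not overlap, and the gap between them was narrow. Sncb fell by 0.38 on the log2 scale (SE 0.10, limma adjusted p = 0.010), or 1.31-fold.

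The other 4 overlapped between groups. Syp, the gene of the abundant vesicle protein synaptophysin, changed by -0.27 ± 0.08 (limma adjusted p = 0.0249). The synapsins tether vesicles in the reserve pool: Syn2 changed by -0.34 ± 0.11 (limma adjusted p = 0.0323) and Syn1 by -0.28 ± 0.10 (limma adjusted p = 0.0391). For Syn1 the 5 Sham rats read 10.34 to 10.39, 6 MCAO rats lay below them and MCAO 4 (10.47) lay above them. Sv2a, the vesicle glycoprotein that binds the antiepileptic drug levetiracetam, changed by -0.21 ± 0.07 (limma adjusted p = 0.0332). The calls of Syn2, Sv2a and Syn1 were lost in 8, 9 and 11 of the 24 alternatives, whereas those of Syngr3 and Sncb were kept in all of them. Syngr1 and Sv2b were near-constant in their brightest probe sets.

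Transporter genes that mark excitatory and inhibitory terminals were both lower. Slc17a6 (Entrez Gene 84487), the vesicular glutamate transporter VGLUT2 that prevails in thalamic and brainstem neurons, read 9.96, 10.04, 10.08, 10.07 and 10.01 in Sham 1 to 5. In MCAO it ran from 9.45 (MCAO 6) over 9.74 to 9.98 (MCAO 2). Only MCAO 2 reached into the Sham range. The change was -0.30 ± 0.07 (limma adjusted p = 0.00696), a 1.23-fold decrease. Slc32a1, the transporter that loads GABA and glycine, changed by -0.20 ± 0.06 (limma adjusted p = 0.0225), with 5 of 7 MCAO rats below the lowest Sham rat. Slc17a7, the cortical glutamate transporter VGLUT1, had a change of -0.28 ± 0.15 that was not called (limma adjusted p = 0.165). Its estimate was near that of Slc17a6, but its MCAO rats spread from 8.92 to 9.68 (SD 0.32, n = 7), against a Sham SD of 0.16 (n = 5). These values are from the brighter Slc17a7 probe set, 1368987_at. The dimmer one, 1368986_at, gave -0.10 ± 0.10, further from Slc17a6, and was not called either (limma adjusted p = 0.458).

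Of the active zone, priming and Rab3 genes 3 of 6 varying members fell. Bsn (Entrez Gene 29138), which encodes the giant scaffold protein bassoon, had the largest change of all members. It read 10.60, 10.61, 10.54, 10.46 and 10.31 in Sham 1 to 5 and 9.66 (MCAO 6), 10.08 (median) and 10.40 (MCAO 2) in MCAO. MCAO 2 lay within the Sham range and the other 6 MCAO rats below it. Bsn fell by 0.49 on the log2 scale (SE 0.14, limma adjusted p = 0.0152), or 1.40-fold. Rab3b, a vesicle GTPase, changed by -0.16 ± 0.04 (limma adjusted p = 0.0155), and Unc13c, a vesicle priming factor of the Munc13 family, by -0.26 ± 0.09 (limma adjusted p = 0.0307).

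Rab3a, the most abundant vesicle GTPase of brain, had a change of -0.39 ± 0.15, nominally larger than that of Rab3b, and was not called (limma adjusted p = 0.0591). Its MCAO rats ranged from 10.55 (MCAO 5) to 11.52 (MCAO 4), and 6 of 7 lay below the lowest Sham rat. It passed in 5 of the 24 alternatives. Rims1, an active zone organizer (0.03 ± 0.02, limma adjusted p = 0.258), and Rph3a, the Rab3 effector rabphilin (0.10 ± 0.12, limma adjusted p = 0.553), had estimates above 0 and were not called. Rph3a was dim, at 6.51 to 7.14 in MCAO and 6.69 to 7.14 in Sham. Pclo, Rims2, Unc13a and Rab3c were near-constant.

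Endocytosis genes fell in 3 of 4 cases, with a median log2 change of -0.20. Dnm1 (Entrez Gene 140694), the neuronal dynamin that pinches vesicles off the membrane, read 11.46, 11.71, 11.72, 11.54 and 11.46 in Sham 1 to 5. MCAO ran from 10.96 (MCAO 6) over 11.08 to 11.53 (MCAO 2). MCAO 2 lay inside the Sham range and the other 6 below it. Dnm1 fell by 0.39 (SE 0.10, limma adjusted p = 0.0115), or 1.31-fold. Snap91, the clathrin adaptor AP180, changed by -0.21 ± 0.07 (limma adjusted p = 0.0383). Synj1, the phosphatase that sheds the clathrin coat, changed by -0.14 ± 0.05 (limma adjusted p = 0.0462). Those 2 calls were lost in 9 and 11 of the 24 alternatives. Amph, which recruits dynamin, had a change of -0.20 ± 0.11 (limma adjusted p = 0.168).

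**Figure D2:**
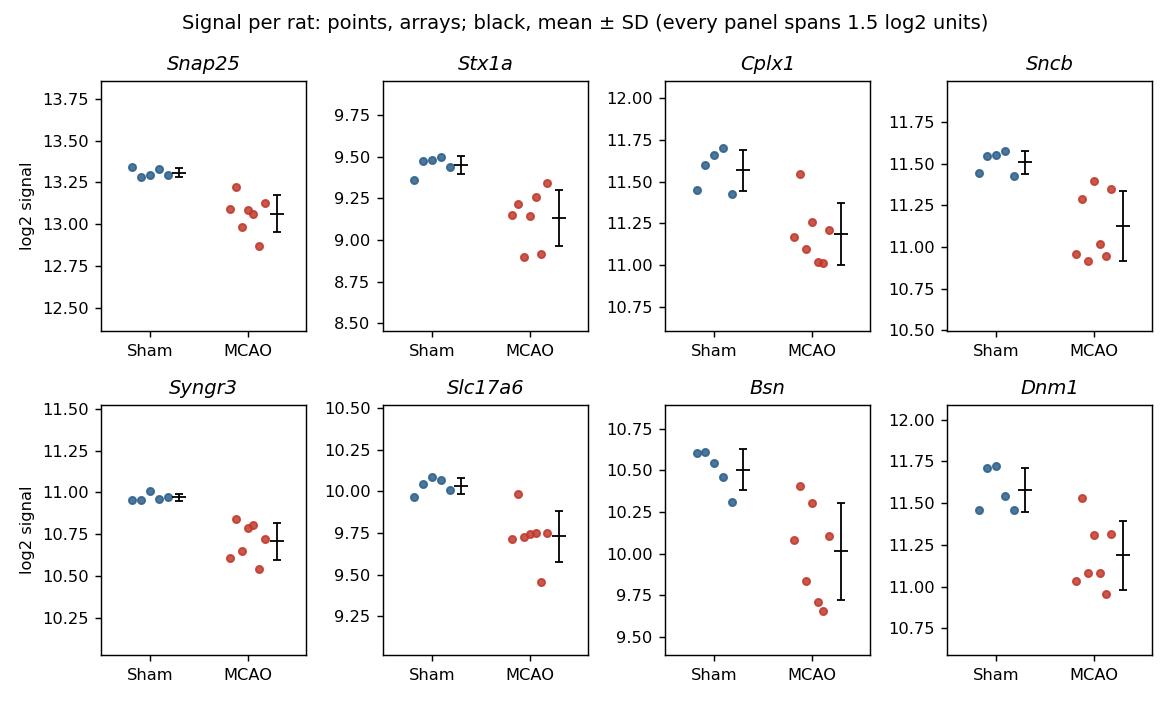
Log2 signal of each rat (vertical axis, every panel 1.5 log2 units tall) for 8 members, with Sham in blue (n = 5), MCAO in red (n = 7) and the mean ± SD in black. The MCAO points lie lower and spread wider than the Sham points in every panel, as for Bsn at 9.66 to 10.40 against 10.31 to 10.61.

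Several genes are read by more than 1 probe set, and these did not always give the same answer. At the probe set level 57 of the 63 were tested and 42 varied: 24 fell, 1 rose and 17 were not called, where 30.7% of all varying probe sets fell and 37% rose. Of 9 genes with at least 2 varying probe sets, the call was the same for all probe sets of a gene in 5 and differed in 4 (Nsf, Sncb, Syn2 and Syt4). The 1 probe set that rose belongs to Syt4 (Entrez Gene 64440), a synaptotagmin that responds to activity and whose first C2 domain does not bind calcium in the usual way. Probe set 1387662_at read 9.38, 9.09, 9.09, 9.37 and 9.25 in Sham 1 to 5 and 9.57 (MCAO 7), 9.67 (median) and 10.02 (MCAO 1) in MCAO. Every MCAO rat was above every Sham rat, with a change of 0.48 ± 0.08 (limma adjusted p = 0.00253). The brighter probe set of Syt4, 1375877_at, read 10.76 to 11.43 in MCAO and 10.85 to 11.03 in Sham, a change of 0.06 ± 0.12 (limma adjusted p = 0.746). The probe sets of Syt4 thus gave different answers.

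For Nsf, probe set 1372528_at changed by -0.45 ± 0.12 (limma adjusted p = 0.0134), while the other probe sets gave -0.08 and -0.02. For Syn2, 1370431_at gave -0.34 ± 0.11 (limma adjusted p = 0.0338), while 1369482_a_at gave 0.08 ± 0.06 and 1382850_at 0.01 ± 0.06. The dimmer Sncb probe set, 1369924_at, gave -0.25 ± 0.10 and was not called (limma adjusted p = 0.079), with an estimate on the same side of 0 as the brighter one. The differences between probe sets of 1 gene were tested by exact permutation (two-sided, 792 splits of the rats), a test chosen after these values had been seen. It passed for 4 of 13 probe set pairs, each with an adjusted p of 0.0205 (exact permutation, Benjamini-Hochberg over the 13). They were 1369690_at minus 1372528_at of Nsf (0.43), 1370431_at against each of the other Syn2 probe sets (0.43 and 0.35 in size), and 1375877_at minus 1387662_at of Syt4 (-0.43). The files do not place the probes on transcripts, so which isoform or region each one reads was not analysed here, and calls of Nsf, Syn2 and Syt4 hold for the named probe set.

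**Figure D3:**
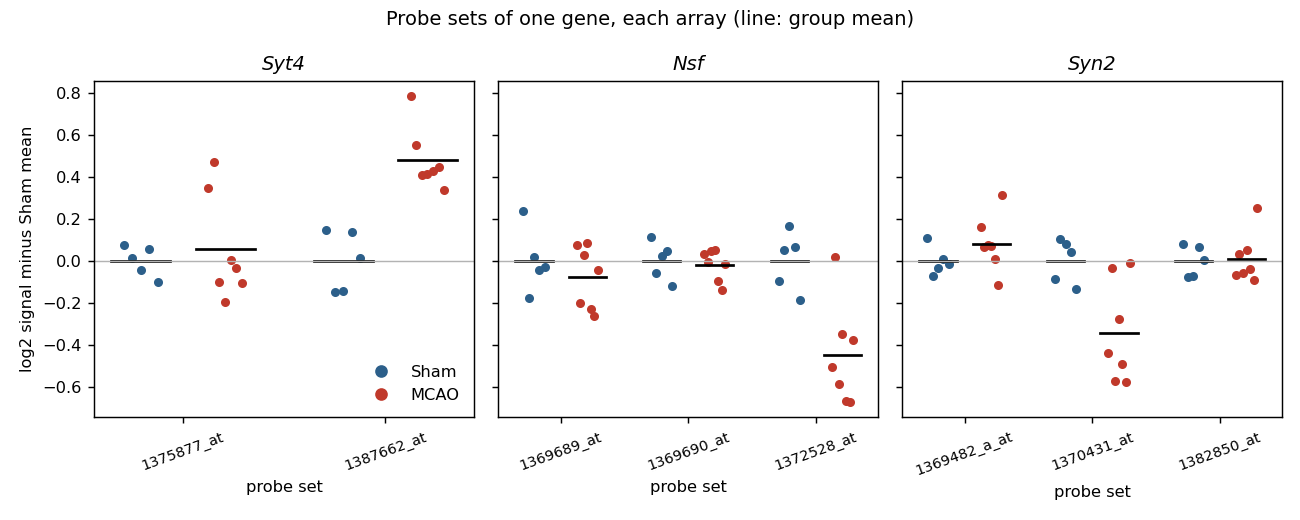
Log2 signal minus the Sham mean (vertical axis) for each rat in every varying probe set of Syt4, Nsf and Syn2, with Sham in blue, MCAO in red and the group mean as a line. The MCAO points of 1387662_at (Syt4) lie above all Sham points, those of 1372528_at (Nsf) have a mean of -0.45, and the other Nsf probe sets have means of -0.08 and -0.02.

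Of the 40 genes tested 11 were not read above because their brightest probe set was near-constant, and 3 of these were called, where 17.1% of all near-constant genes were called in either direction: Rab3c (-0.00032), Pclo (-0.00022) and Syt12 (-0.00019). Those changes have no interpretable size and are not counted above. Of the 11, 2 have another probe set that varied and was not called: 1369627_at of Sv2b (0.14 ± 0.11, limma adjusted p = 0.318) and 1387399_at of Pclo (-0.05 ± 0.10, limma adjusted p = 0.743).

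Members that are paralogues or act as partners were compared directly: the difference between their changes was tested by exact two-sided permutation. Of 17 pairs 16 were tested, and in 8 both genes varied. None of the 8 passed, and 0 of them had an unadjusted p under 0.05, where the smallest p the design allows is 0.00126. The widest gaps were those of Rab3a minus Rab3b (-0.23 ± 0.12, SE; exact permutation p = 0.124) and of Syt1 minus Syt4 (-0.24 ± 0.15, exact permutation p = 0.198). Dnm1 minus Amph was -0.20 ± 0.09 (exact permutation p = 0.0568), and Cplx1 minus Cplx2 was -0.17 ± 0.16 (exact permutation p = 0.361). The cortical and subcortical glutamate transporters differed by 0.02 ± 0.12 (Slc17a7 minus Slc17a6, exact permutation p = 0.894), the excitatory and inhibitory transporters by -0.08 ± 0.14 (Slc17a7 minus Slc32a1, exact permutation p = 0.587). In both pairs Slc17a7 was read from its brighter probe set, 1368987_at. Vamp2 minus Vamp1 was 0.04 ± 0.09 (exact permutation p = 0.686) and Syn1 minus Syn2 was 0.07 ± 0.10 (exact permutation p = 0.514). The errors are large beside the changes of single genes, so equal changes are not shown. With the probe set of largest variance, which for Syt4 is the one that rose, Syt1 minus Syt4 was -0.67 and passed (exact permutation adjusted p = 0.0202).

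The MCAO rats differed in how far the members fell. The median difference of the 29 varying members from their Sham means was -0.40 in MCAO 6, -0.32 in MCAO 1 and MCAO 3, and -0.27 in MCAO 5. It was -0.11 in MCAO 4, -0.10 in MCAO 7 and -0.09 in MCAO 2. In Sham it lay between -0.05 and 0.03, so that every MCAO rat had a median below every Sham rat. The Sham rats themselves set the Sham means, which draws their medians toward 0 by construction, and the separation was not tested. The count of members below their lowest Sham value ran from 16 in MCAO 2 and MCAO 4 to 26 in MCAO 6, which was also the lowest of all 12 arrays for 12 of the 29 genes. The SD was larger in MCAO than in Sham for 28 of the 29 members (96.6%), and for 89.4% of all varying genes. The count of calls depended on single rats: of the 20 members that fell 13 were still called without MCAO 6, and 11 without Sham 2 or without Sham 3. All 20 kept an estimate below 0 in each of the 24 alternatives. The calls of Snap25, Napb, Stx1a, Cplx1, Syngr3, Sncb, Slc17a6, Bsn and Dnm1 were kept in each of them.

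Neuron markers moved with the members. Of 13 varying markers of neurons in general 11 fell and 0 rose, with a median log2 change of -0.36, among them Stmn2, a microtubule regulator (-0.28 ± 0.04), and Nefm, a neurofilament (-0.58 ± 0.12). The mean signal of this list was 10.68 to 10.87 in Sham and 10.32 to 10.74 in MCAO, so neuronal RNA was well detected in every rat and the label of brain tissue holds. By rat, the median difference of the neuron list was lowest in MCAO 5 (-0.44), MCAO 6 (-0.43), MCAO 1 (-0.40) and MCAO 3 (-0.38), the same 4 rats in which the members were lowest. It was -0.25, -0.21 and -0.10 in MCAO 7, MCAO 4 and MCAO 2. This order was not particular to neurons. Among the MCAO rats the same 4 were lowest for astrocyte markers (-0.51 to -0.35) and oligodendrocyte markers (-0.43 to -0.16). The oligodendrocyte list ran from -0.23 to 0.15 in Sham, so MCAO 3, MCAO 5 and MCAO 6 lay within the Sham range. The same 4 rats were highest for neutrophil and monocyte markers (1.15 to 1.92), but MCAO 4 was close to the lowest of them (1.14). The striatal list was lowest in MCAO 1, 6, 5 and 7 and the cortical list in MCAO 5, 6, 1 and 2. The interneuron, microglia and endothelial lists did not share the order either. Markers of striatal projection neurons fell further: 10 of 11, with a median of -0.82, and with a list mean of 9.22 to 9.33 in Sham against 8.46 to 8.77 in MCAO. Of these, Drd2 changed by -0.84 and Adora2a by -1.05. Of 5 varying cortical glutamatergic markers 2 fell (Neurod6, -0.69, and Slc30a3, -0.71), with a list mean of 9.02 to 9.17 in Sham and 8.67 to 9.07 in MCAO. The interneuron list went both ways, with 2 lower and 3 higher of 8 (25% and 37.5%). Those shares were near the 34.2% lower and 35.2% higher of all varying genes. So was the share of cortical markers that fell (40%).

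Markers of other cell types changed too. All 7 varying neutrophil and monocyte markers rose (mean signal 6.72 to 6.91 in Sham and 7.81 to 8.93 in MCAO), including Cd14 (3.13 ± 0.29). Microglia markers gave 3 higher and 2 lower of 6, with Tyrobp at 1.61 ± 0.17. The 2 lower ones were P2ry12 (-1.26) and Tmem119 (-0.52), each with all MCAO rats below all Sham rats. Of 10 astrocyte markers 7 fell, among them Aldh1l1 (-0.78 ± 0.13), and 1 rose, the filament gene Gfap (1.91 ± 0.12). The share of astrocyte markers that fell (70%) and their median log2 change (-0.30) were close to those of the members (69.0% and -0.26). Of 7 oligodendrocyte markers 3 fell, and endothelial and mural markers gave 3 higher and 1 lower of 6. Over all varying genes 34.2% fell and 35.2% rose. The shares that fell among microglia (33.3%) and oligodendrocyte markers (42.9%) were near that background. The microglia, oligodendrocyte and endothelial counts are too small to be read as a change of the cell type. The part of the marker shifts in the fall of the vesicle genes was not tested.

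**Figure D4:**
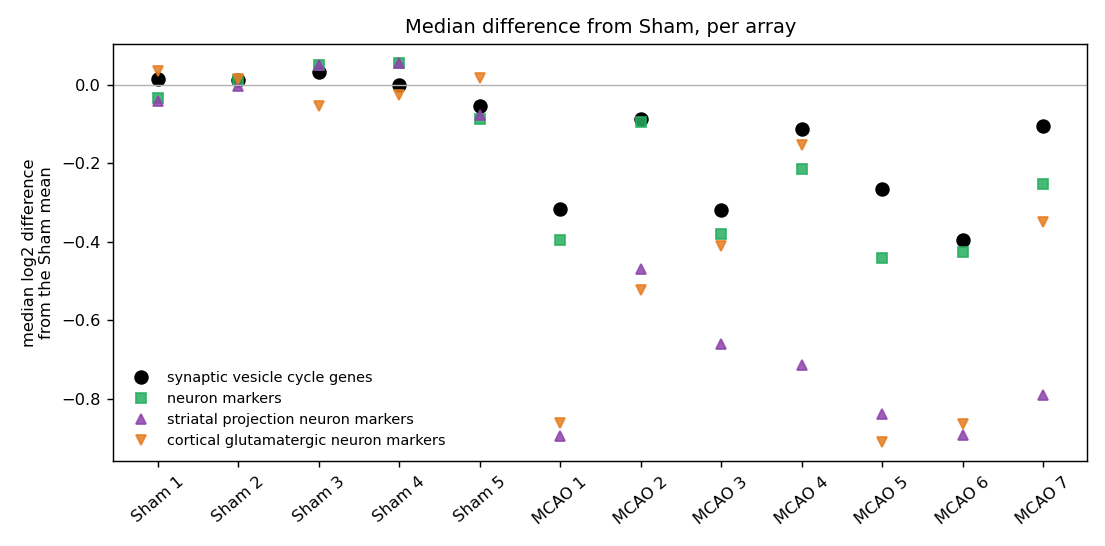
Median log2 difference from the Sham mean (vertical axis) for each of the 12 arrays, over the varying synaptic vesicle cycle genes (black) and 3 lists of neuron markers (green, purple and orange). MCAO 1, 3, 5 and 6 have member medians from -0.27 to -0.40, MCAO 2, 4 and 7 from -0.09 to -0.11, and the striatal markers lie below the members in every MCAO rat.

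A list of 111 other genes of the vesicle cycle set the members in context. Of these 94 were tested and 60 varied: 33 fell, 11 rose and 16 were not called, with a median log2 change of -0.13. The 55% that fell was above the 34.2% of all varying genes, and the 18.3% that rose was below their 35.2%. The same background holds for each list below. Of the other 17 genes, 15 were not analysed here and the filter removed 2. At the gene level this wider list held genes that rose, which the 29 varying members did not. Members and lists were chosen with earlier results of these data known, so that contrast may reflect the choice and was not tested. All MCAO rats were below all Sham rats in 15 of the 60 and above them in 6. Over all varying genes 16.2% lay fully below and 17.9% fully above.

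SNARE genes outside the set went both ways. Napa, the general SNAP adaptor, fell (10.37 ± 0.14, SD, n = 7, against 10.67 ± 0.07, SD, n = 5; change -0.29 ± 0.07, limma adjusted p = 0.00667). Vamp3, the synaptobrevin of general membrane recycling, rose. It read 9.41, 9.44, 9.39, 9.60 and 9.54 in Sham 1 to 5 and 9.67 to 10.11 in MCAO with a median of 9.86, without overlap (0.41 ± 0.07, limma adjusted p = 0.00249). In all 5 of the 9 varying genes fell and 3 rose. The other 2 that rose, named after their values were seen, were Snap23 (0.29) and Stx4 (0.48), the SNAP-25 and syntaxin relatives of most cell types. Other vesicle proteins went both ways too, with 2 lower and 3 higher of 8 (25% and 37.5%), near the shares over all varying genes. Synpr, the synaptophysin relative synaptoporin, fell (-0.23 ± 0.04, limma adjusted p = 0.00176). Syngr2, the synaptogyrin found outside neurons, rose from 7.76 ± 0.09 (SD, n = 5) to 8.24 ± 0.12 (SD, n = 7), with all MCAO rats above all Sham rats (0.48 ± 0.06, limma adjusted p = 0.000949). Scamp2, a carrier protein of general secretion, rose as well (0.65), named after its value was seen.

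Calcium sensors and regulators of release outside the set fell in 6 of 7 varying genes. Cadps, which primes dense core vesicles, fell (-0.38 ± 0.07, limma adjusted p = 0.00298). Its relative Cadps2 (-0.87) and the synaptotagmin gene Syt17 (-0.80), both named after their values were seen, had larger changes than any member. The vesicular proton pump fell in 8 of 9 varying subunits with a median of -0.14. Atp6v1d, a subunit of its rotor, read 12.09, 12.04, 12.07, 12.05 and 12.03 in Sham 1 to 5 and 11.85 to 12.00 in MCAO, without overlap (-0.13 ± 0.03, limma adjusted p = 0.00334). This pump also acidifies lysosomes and other organelles in all cells. Slc30a3, the zinc transporter of glutamatergic vesicles, was the 1 of 2 varying transporters that fell (-0.71 ± 0.17, limma adjusted p = 0.00799), and all MCAO rats were below all Sham rats.

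Active zone, priming and Rab genes outside the set gave 4 lower and 1 higher of 9. Rab3gap1, which regulates the Rab3 cycle, fell (-0.28 ± 0.06, limma adjusted p = 0.00374), and Ppfia2, a liprin scaffold, rose (0.39 ± 0.13, limma adjusted p = 0.0364) with overlap between the groups (6.73 to 7.64 in MCAO and 6.74 to 7.03 in Sham). Endocytosis genes gave 7 lower and 4 higher of 16. Eps15, a clathrin adaptor, fell (-0.28 ± 0.05, limma adjusted p = 0.00216). Cltb, a clathrin light chain, rose (0.25 ± 0.04, limma adjusted p = 0.0022). Both separated the groups completely.

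**Figure D5:**
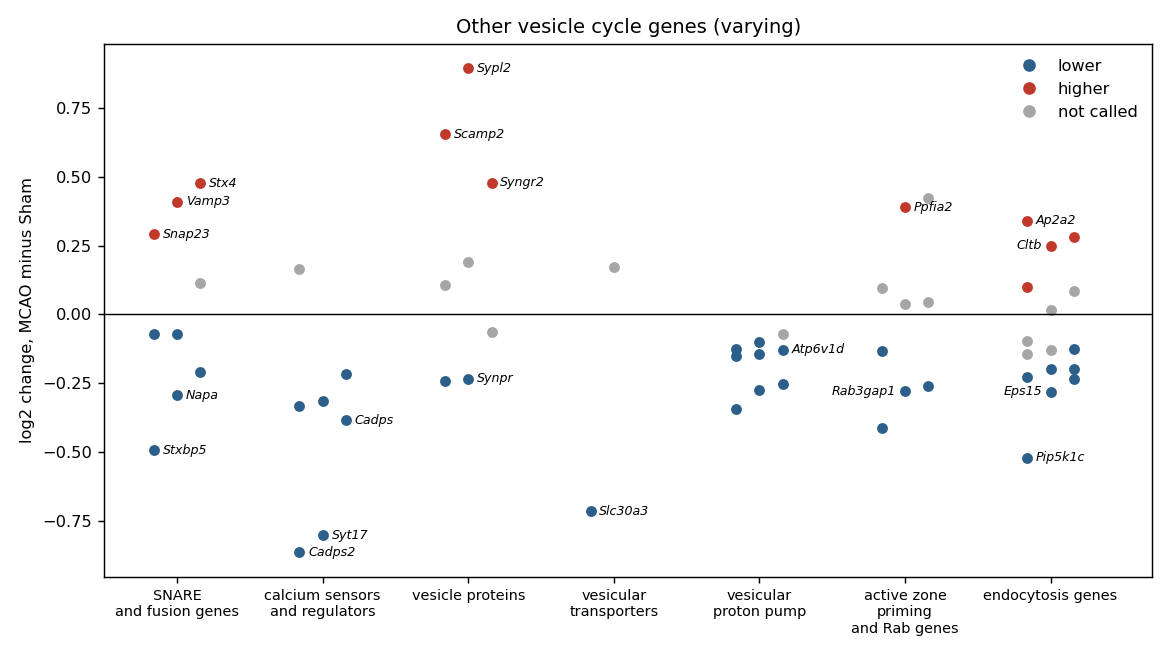
Log2 change (MCAO minus Sham, vertical axis) of the 60 varying vesicle cycle genes outside the set, by list, with lower genes in blue, higher genes in red and uncalled genes in grey. Red points appear for SNARE relatives such as Vamp3 (0.41) and Stx4 (0.48) and for vesicle proteins such as Scamp2 (0.65), while 8 of 9 proton pump subunits are blue.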

How the data were processed

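The members, roles, gene lists and pairs were chosen with earlier results of these data known. The authors' deposited table gives 1 value per probe set and array, read as log2 from its range, since no log base is stated. Per the labels, 100 ng of total RNA was turned into biotin-labelled cRNA. The upstream software and normalization are not stated by any source at hand, and values were used as deposited. Probe sets with 1 gene in the array's gene table (20826) were kept if above 6.61 (25th percentile) in at least 5 arrays. A gene was read from its probe set with the highest mean. MCAO was set against Sham in R 4.3.3 by limma 3.58.1 (lmFit, eBayes with trend, two-sided), with Benjamini-Hochberg adjustment at 0.05. The procedure was also run on simulated data in which genes varied independently, so that run cannot vouch for calls of genes that move together. Values per rat are given for, in each role group, the called gene with the largest change and that with the strongest statistic. Of other lists, the strongest called gene in each direction is named, leaving out near-constant ones. Of marker lists up to 2 of the strongest are named, and of microglia also the 2 lower ones. Pairs were compared by exact permutation over 792 splits. The closing section gives the alternatives.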

Additional observations from a re-analysis of the deposited data

Results flagged for a closer look

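In 84 groups of arrays (Sham or MCAO, in each of the 42 varying member probe sets), 5 held 1 rat that stood apart from the rest of its group, by the gap to the nearest rat as a share of the group's range (Dixon's test). About 5% of groups are marked so by chance. In Sham these were Rims1 in Sham 1 (7.64, next 7.59), Syngr3 in Sham 3 (11.01, next 10.97) and Unc13c in Sham 4 (7.94, next 8.13). In MCAO these were Rph3a in MCAO 2 (6.51, next 6.98) and Syn2 probe set 1382850_at in MCAO 7 (9.63, next 9.43).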

How the results depend on the processing

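Over 24 alternatives, the 20 members that fell kept their direction, and 11 to 20 of them kept their call. With the replicate block (5 pairs by the labels' numbers; deviations of same-numbered arrays correlated at -0.33 to 0.54, over 0.1 in 3 of 5), 11 members, 10 member probe sets and 19 other vesicle genes fell, and over all varying genes 1347 fell and 1432 rose. Leaving out 1 array gave 11 to 21 members lower (11 without Sham 2 or Sham 3, 13 without MCAO 6), 13 to 26 member probe sets lower (14 without Sham 2, 15 without MCAO 6), 25 to 33 other genes lower and 9 to 15 higher, and 1760 to 2332 of all varying genes lower and 1870 to 2556 higher. With the mean of probe sets or the probe set of largest variance, 1 member rose (Syt4) and 1 pair passed (Sv2a minus Sv2b, -0.29, and Syt1 minus Syt4, -0.67; exact permutation adjusted p = 0.0404 and 0.0202). Some uncalled estimates turned sign, Cplx1 minus Cplx2 from -0.17 and Syn1 minus Syn2 from 0.07. With the mean of probe sets, Slc17a7 minus Slc32a1 was 0.0053, Vamp2 minus Vamp1 -0.079, Syn1 minus Syn2 -0.22 and Cplx1 minus Cplx2 0.024. Nsf was 0.0050 with the block, 0.0018 without MCAO 6 and 0.0094 without Sham 1 (leave-one-out range -0.049 to 0.0094). Slc17a7 minus Slc17a6 was -0.078 with the block, -0.041 without MCAO 4, -0.040 without MCAO 7, -0.0012 without MCAO 6 and -0.022 without Sham 1 (range -0.041 to 0.087). Syt4 was -0.014 without MCAO 2 (range to 0.097), and Vamp2 minus Vamp1 was -0.016 without Sham 4 (range to 0.11). Syn2 probe set 1382850_at was -0.0031 with array weights, -0.017 with the block and -0.030 without MCAO 7 (range to 0.030). The block holds fewer arrays and allows no pair to pass, and the cause of the other changes was not tested. With near-constant probe sets left out, an alternative chosen after seeing the data, 0 of 10 pairs passed by exact permutation, with 2 at an unadjusted p under 0.05 (Sv2a minus Sv2b, -0.36, and Bsn minus Pclo, -0.44).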
